A study of Mus musculus with 12 samples.

Results

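The 10 genes described here form the stem of insulin signalling, from the receptors at the cell surface to the Akt kinases. They were Insr, Igf1r, Irs1, Irs2, Grb14, Pik3r1, Pik3ca, Pik3cb, Akt1 and Akt2, taken by symbol from a table of 56748 genes, and each symbol matched 1 row. Insulin or insulin-like growth factor binding turns on the tyrosine kinase of Insr or Igf1r, which phosphorylates the Irs docking proteins. These recruit PI 3-kinase, a dimer of a regulatory subunit such as Pik3r1 and a catalytic subunit such as Pik3ca or Pik3cb, and the lipid it makes brings Akt to the membrane to be activated. In rod photoreceptors this route is known for its part in cell survival and in the supply of glucose to aerobic glycolysis, and Grb14 is an adaptor that binds the active receptor and inhibits it. Shp2, the tyrosine phosphatase encoded by Ptpn11, acts on the same receptors and docking proteins.

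The mRNA came from retinas of 2-week-old littermate mice, and Shp2 was targeted in rods with a Cre recombinase (i75-Rod-Cre) driven by the rhodopsin promoter. Control mice (Het) were RiboTag;Shp2fl/+;i75-Rod-Cre, so they also carried the Cre and had 1 floxed Shp2 allele, and their libraries are called wt in the titles although the genotype is given as Shp2_Rodhet. Knockout mice (KO) were RiboTag;Shp2fl/fl;i75-Rod-Cre, listed as Shp2_Rodko. All mice carried the RiboTag allele, in which Cre adds an HA tag to the ribosomal protein Rpl22, so that antibody-coated beads pull down the ribosomes of rods with their mRNA (translating ribosome affinity purification, TRAP). Each genotype had 3 libraries of bead-bound mRNA (rods) and 3 of the whole lysate (retina), 12 in all, and the sources used here do not say how many mice went into a library. Since nothing ties the libraries to separate mice, p-values measure the spread between libraries, part of which may be technical.

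The deposited values are whole numbers that were scaled per library, with totals of 16263948 to 16265259 in rods and 14525527 to 14527992 in retina. Steps in the low integers placed the reads behind them at 11890000 to 25280000 in rods and 9980000 to 19230000 in retina, and a count of 3 reads then corresponds to a value of 1.93 to 4.10 in rods and 2.27 to 4.37 in retina. The 22 rod markers summed to 197360 to 217769 CPM (the value relative to the library total) in Het rods and 218197 to 233718 in KO rods, against 66512 to 85964 in Het retina and 75581 to 82704 in KO retina. Each of the 22 was called higher in Het rods than in retina, and their median log2 fold change was 1.75. The median was -1.03 for cone, -4.95 for Müller glia, -4.88 for bipolar, -4.89 for amacrine, -5.00 for ganglion and -4.65 for horizontal cell markers, and -4.02 for microglia, -4.32 for vascular and -3.71 for pigment epithelium markers. Ptpn11, the targeted gene, measured 2511, 2439 and 2431 in the Het and 1735, 2139 and 1971 in the KO libraries of rods. All KO values lay below all Het values, with a log2 fold change of -0.28 (SE 0.0888, limma adjusted p = 0.0405), which did not pass the limit of 0.5 on the fold change. In whole retina Ptpn11 was 2390, 2512 and 2125 in Het and 2205, 2147 and 2466 in KO, and the groups overlapped.

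The 10 genes differ in base composition, and coding stretches of Akt1 and Akt2 show this before any value is given. The longest coding transcript of Akt1 has 59.7% G and C and that of Akt2 55.2%. The stretches below begin at the same codon of the kinase activation segment in both genes, run for 90 bases and have G and C in capitals. They encode the same 30 residues, yet Akt1 differs from Akt2 at 13 bases, 12 of which are the last base of a codon. Positions are in GRCm38, and each stretch spans an exon boundary: chr12:112656941-112657106 on the minus strand for Akt1 and chr7:27636129-27636314 on the plus strand for Akt2.
Akt1: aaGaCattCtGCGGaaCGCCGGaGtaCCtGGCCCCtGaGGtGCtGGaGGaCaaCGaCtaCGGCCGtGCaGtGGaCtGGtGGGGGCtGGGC
Akt2: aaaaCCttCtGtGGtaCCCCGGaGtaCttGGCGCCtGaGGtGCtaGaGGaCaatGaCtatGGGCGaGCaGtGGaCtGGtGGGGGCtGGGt

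G and C made up 59 of the 90 bases in Akt1 and 53 in Akt2. At the last base of codons alone the share was 83.3% and 66.7%. The PI 3-kinase regulatory subunits differ in the same way: the Pik3r1 transcript has 44.9% G and C, Pik3r2 61.4% and Pik3r3 44.3%. The next lines give 90 bases that start at the same conserved codons of a phosphotyrosine-binding SH2 domain, at chr13:101689126-101689454 (minus strand), chr8:70770731-70770902 (minus strand) and chr4:116259588-116270821 (plus strand) of GRCm38, each across an exon boundary.
Pik3r1: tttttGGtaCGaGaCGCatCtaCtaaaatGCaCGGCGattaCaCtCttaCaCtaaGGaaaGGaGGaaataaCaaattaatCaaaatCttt
Pik3r2: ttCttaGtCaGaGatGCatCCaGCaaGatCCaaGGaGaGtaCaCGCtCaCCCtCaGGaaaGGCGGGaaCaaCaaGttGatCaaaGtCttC
Pik3r3: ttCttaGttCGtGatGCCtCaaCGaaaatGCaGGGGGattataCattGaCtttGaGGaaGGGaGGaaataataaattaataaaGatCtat

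Here 31 of the 90 bases were G or C in Pik3r1, 43 in Pik3r2 and 31 in Pik3r3, and Pik3r1 differed from Pik3r2 at 24 bases and 5 residues. Among the other genes the transcript GC content was 56.6% for Irs2, 50.3% for Irs1, 50.1% for Grb14, 49.4% for Igf1r, 46.8% for Insr, 45.8% for Pik3cb and 41.2% for Pik3ca. They are given because the libraries also differed in how their values rose or fell with GC content.

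The first comparison set the ribosome-bound mRNA of KO rods against that of Het rods. Akt1 rose in KO rods, and it was the only 1 of the 9 genes tested to pass both limits (adjusted p under 0.05 and a log2 fold change beyond 0.5). Irs2 and Akt2 were higher and Pik3ca was lower at adjusted p-values under 0.05, but with log2 fold changes inside the limit of 0.5. Insr, Igf1r, Irs1, Pik3r1 and Pik3cb did not pass the test, and Grb14 was too low in rods to be tested. Over all genes tested, 1711 of 13055 were called in this comparison (13.1%), 1406 of them higher (10.8%) and 305 lower (2.34%). With library size as the only scaling the split was 1202 higher and 584 lower.

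Akt1, the kinase isoform best known for growth and survival, stood at 403, 608 and 559 (deposited values) in the Het libraries of rods and at 863, 993 and 770 in the KO libraries. Every KO library lay above every Het library. The log2 fold change was 0.82 (SE 0.167, adjusted p = 0.00986), or 1.76-fold on the scale of log2(value + 2) that is used for all fold changes here. It remained called when each library was left out in turn, with log2 fold changes of 0.66 to 0.95. Akt2, the isoform tied to insulin-stimulated glucose uptake, had Het values of 212, 239 and 259 and KO values of 311, 358 and 280. Its KO values were again all above the Het values, and the log2 fold change of 0.48 (SE 0.139, adjusted p = 0.0274) stayed inside the limit of 0.5. Without Het replicate 3 or without KO replicate 3 it passed the limit, at 0.55 and 0.60.

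Irs2, 1 of the docking proteins that link the receptors to PI 3-kinase, was also higher at an adjusted p under 0.05. The Het libraries held 387, 366 and 315 and the KO libraries 441, 510 and 483, with no overlap. The log2 fold change was 0.49 (SE 0.113, adjusted p = 0.0107), just inside the limit of 0.5, and it passed that limit in 4 of the 6 fits that left out 1 library. Irs1, the other main docking protein, was near the lower end of what could be tested, with Het values of 14, 32 and 26 and KO values of 22, 25 and 20. The KO values lay within the Het range, the log2 fold change was 0.03 (SE 0.323), and leaving out a library moved it between -0.27 and 0.27.

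The catalytic subunits of PI 3-kinase had log2 fold changes below 0. Pik3ca, which encodes p110 alpha, the subunit that insulin receptors chiefly use, had Het values of 4958, 4336 and 4263 and KO values of 3509, 3506 and 3743. Its 3 KO values were all below the Het values, with a log2 fold change of -0.26 (SE 0.0764, adjusted p = 0.0263). Pik3cb, which encodes p110 beta, had Het values of 798, 755 and 785 and KO values of 620, 597 and 698. These groups did not overlap either, but the log2 fold change of -0.22 did not pass the test (SE 0.0893, adjusted p = 0.0833). Pik3r1, the main regulatory subunit, had Het values of 3791, 3083 and 3112 and KO values of 2927, 2988 and 3109. Only Het replicate 1 stood apart, and the log2 fold change of -0.07 (SE 0.0861) became 0.04 without it.

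Neither receptor passed the test. Insr had Het values of 2408, 2171 and 2150 and KO values of 2348, 2070 and 2343, which overlapped, with a log2 fold change of 0.07 (SE 0.0796, adjusted p = 0.529). Igf1r, which can pair with Insr in hybrid receptors, had Het values of 2291, 2328 and 2320 and KO values of 2603, 2353 and 2653. All KO values were higher, and the log2 fold change of 0.20 did not pass the test (SE 0.0741, adjusted p = 0.0698). In all, 4 of the 9 genes tested were higher without overlap and 2 lower, beside 22.7% and 22.2% of all genes tested, and 44.8% in either direction. The median log2 fold change of the 9 genes was 0.07, against -0.03 for all genes tested.

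**Figure D1:**
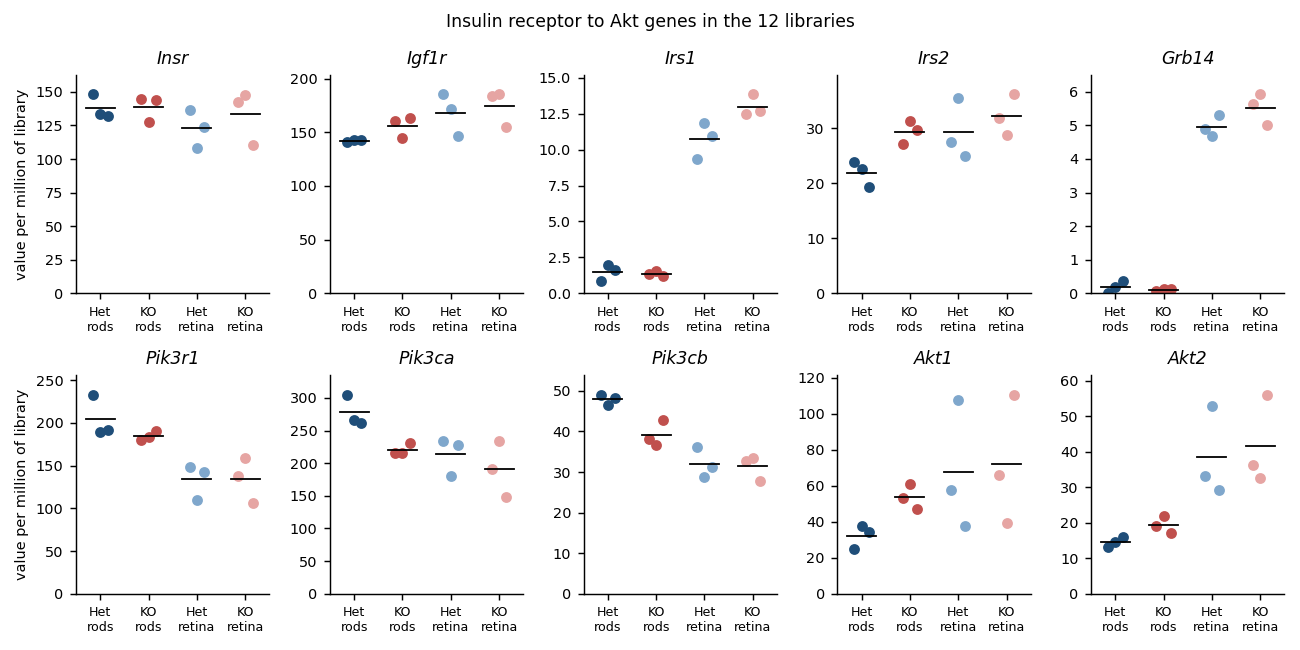
CPM, the value relative to the library total (y axes, from 0) for the 10 genes, 1 panel per gene, in Het rods, KO rods, Het retina and KO retina (x axes). Points are the 3 libraries of a group and bars their mean. The Akt1, Akt2, Irs2 and Igf1r points of KO rods lie above those of Het rods, Pik3ca and Pik3cb below, and Akt1 is widely spread within each retina group.

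The rod libraries of the 2 genotypes also stood apart in base composition. For each library the GC trend was taken as the median deviation from the gene means in the 10% of genes richest in GC minus that in the poorest 10%. On the log2 scale it was -0.81, -0.23 and -0.42 for the Het libraries and 0.42, 0.76 and 0.28 for the KO libraries, so the genotypes did not overlap. In rank, the fold changes of the genes of the insulin route followed transcript GC content, although both receptors lay above most genes of similar GC content. The Spearman correlation of log2 fold change with transcript GC content was 0.933 over the 9 genes tested and 0.703 over 12907 genes, given as a description of values that share the same 6 libraries. In the bin of transcripts with 58% to 60% GC, which holds Akt1, the median gene had a log2 fold change of 0.67, and in that of 40% to 42%, which holds Pik3ca, -0.29. The 2 bins of Akt2 and Irs2, from 54% to 56% and from 56% to 58%, had medians of 0.34 and 0.50. Insr, at 0.07, lay above the upper quartile of -0.01 in its bin of 46% to 48% (median -0.15). Igf1r, at 0.20, lay above that of 0.07 in its bin of 48% to 50% (median -0.07).

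The order of levels was also compared library by library. Among the 15 pairs of rod libraries, Akt1 was higher in the library with the higher GC trend in 15, Akt2 in 14 and Irs2 in 12. Pik3cb followed that order in 0 pairs, Pik3ca in 1 and Pik3r1 in 2, so their levels ran opposite to it. Igf1r followed the order in 12 rod pairs, Irs1 in 9, and Insr and Grb14 in 6 each. The whole-retina libraries, where the trend was -0.24, 0.86 and -0.84 in Het and 0.01, -0.63 and 0.90 in KO and so was mixed between genotypes, were compared in the same way. Akt1 followed the order in 15 of 15 pairs, Akt2 in 15, Irs2 in 14, Pik3cb in 4, Pik3ca in 3 and Pik3r1 in 2. Igf1r did so in only 5 retina pairs, unlike in rods, and Irs1 in 9, Insr in 5 and Grb14 in 5.

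**Figure D2:**
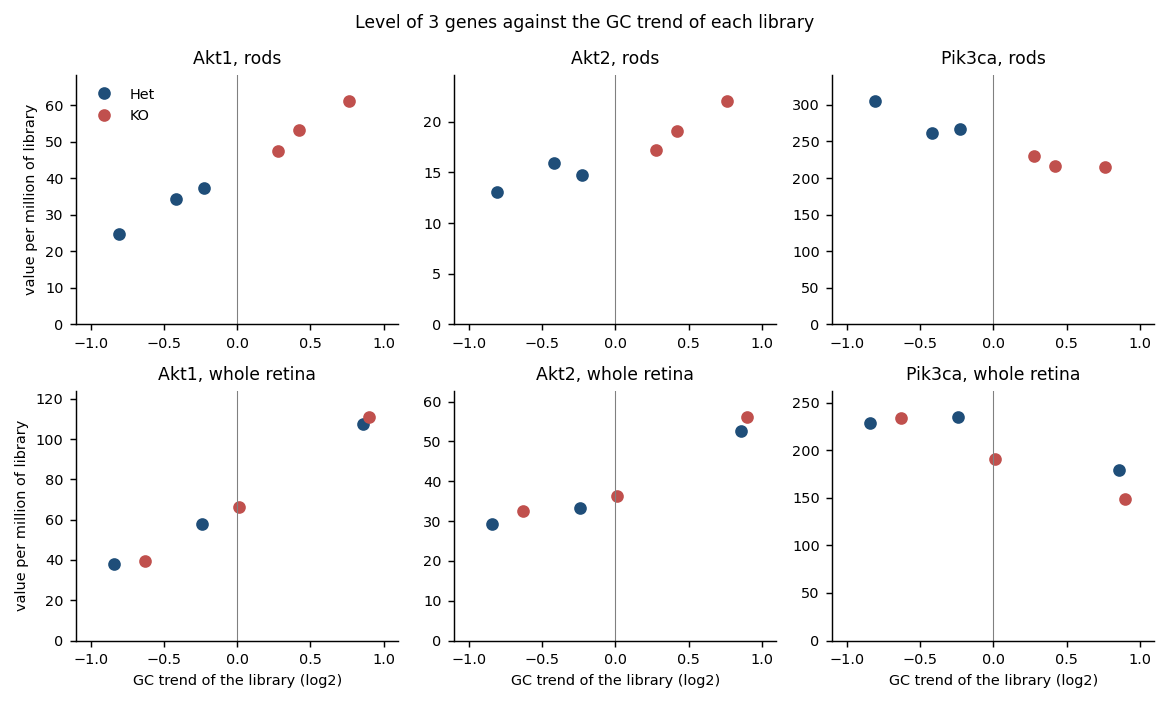
CPM, the value relative to the library total (y axes, from 0) of Akt1, Akt2 and Pik3ca against the GC trend of each library in log2 (x axes), for the 6 rod libraries (upper row) and the 6 whole-retina libraries (lower row), 1 point per library coloured by genotype. Akt1 is ordered by the trend in 15 of 15 library pairs of each row, while Het and KO are separated along the x axis only in rods.

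When a smooth GC trend was subtracted from each rod library before the test, none of the genes stayed called. Akt1 then had a log2 fold change of 0.17 (SE 0.0909, adjusted p = 0.281), Akt2 0.18 (SE 0.112, adjusted p = 0.34) and Irs2 0.08 (SE 0.113, adjusted p = 0.699). The 3 PI 3-kinase genes changed sign, to 0.07 for Pik3ca (SE 0.0603), 0.02 for Pik3cb (SE 0.0762) and 0.19 for Pik3r1 (SE 0.0661). None passed the test, so the new signs are not resolved. The receptors, which lie near the middle of the GC range, became the genes with the lowest p-values: Igf1r at 0.30 (SE 0.0609, adjusted p = 0.0133) and Insr at 0.28 (SE 0.0605, adjusted p = 0.0176), both inside the limit of 0.5. Ptpn11, with 51.8% GC, was -0.31 (adjusted p = 0.037). Over all genes, 253 were then called higher and 117 lower. Since every KO rod library had a higher GC trend than every Het rod library, genotype and GC trend cannot be told apart in rods.

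**Figure D3:**
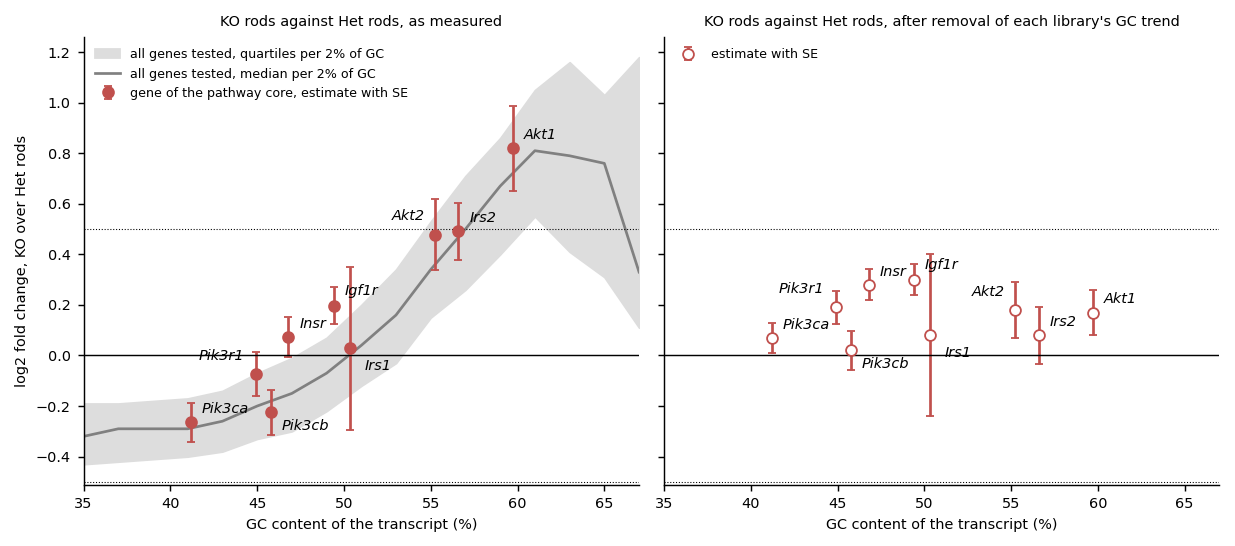
Log2 fold change of KO over Het rods (y axis) against the GC content of the transcript in percent (x axis) for the 9 genes tested, with standard errors, as measured (left) and after each library's GC trend was removed (right). The grey line and band are the median and quartiles of all genes tested in bins of 2% GC, and dotted lines mark the limits of 0.5. As measured, Akt1, Irs2 and Akt2 lie at 0.82, 0.49 and 0.48 near the rising part of the grey line, and after removal all 9 lie between 0.02 and 0.30.

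Markers of other cell types were summed in the same rod libraries. The microglia markers summed to 17.5 to 19.4 CPM in Het rods and 12.9 to 13.3 in KO rods, and the amacrine markers 41.4 to 46.5 and 47.7 to 67.02, without overlap. Only 1 of the 10 microglia markers was high enough to be tested between KO and Het rods, and it was not called (log2 fold change -0.44). Of the 10 amacrine markers, 7 were tested. The summed rod markers also did not overlap between genotypes, as given above, while the sums of the other 7 marker lists did. Their part in the results for the 10 genes was not tested.

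In whole retina, none of the 10 genes was called between KO and Het (limma), and over all genes 0 of 16863 were called (0%), with 140 at an unadjusted p under 0.05. Akt1 had 838, 1562 and 549 in Het retina and 962, 571 and 1608 in KO retina. The groups spanned nearly the same range, and the log2 fold change was 0.10 with a standard error of 0.469, so a change of the size seen in rods was not detectable here. Akt2 behaved alike, with 482, 766 and 425 in Het retina, 527, 472 and 814 in KO retina and a log2 fold change of 0.13 (SE 0.296). Irs1 was the only gene of the 10 without overlap, at 136, 172 and 159 in Het and 181, 201 and 184 in KO retina. Its log2 fold change of 0.28 (SE 0.19) had an adjusted p of 0.999932, and 1.54% of all genes tested were higher without overlap, 1.98% lower and 3.52% either.

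The remaining genes gave retina log2 fold changes from -0.17 for Pik3ca (3407, 2609 and 3318 in Het, 2769, 3403 and 2156 in KO) to 0.16 for Grb14 (71, 68 and 77 in Het, 82, 86 and 73 in KO). Irs2 had 399, 516 and 363 in Het retina and 462, 417 and 525 in KO retina. Pik3r1, with 2160, 1598 and 2077 in Het and 1996, 2306 and 1548 in KO, and Pik3cb, with 526, 418 and 453 in Het and 477, 487 and 403 in KO, overlapped fully. The receptors overlapped as well: Insr had 1983, 1571 and 1801 in Het and 2068, 2144 and 1600 in KO retina, and Igf1r 2690, 2490 and 2134 in Het and 2663, 2690 and 2254 in KO retina.

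An interaction term asked whether the KO effect differed between the fractions. None of the 10 genes was called, and over all genes 0 of 17192 were (0%), with 602 at an unadjusted p under 0.05. The largest of the 10 differences was that of Akt1, 0.63 log2 higher in rods with a standard error of 0.547 (adjusted p = 0.803). A change of Akt1 that differed between rods and retina was therefore not shown.

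The second pair of comparisons set rods against whole retina within each genotype, which sets rod mRNA against that of all retinal cells. In bulk samples of this kind, fewer cells of a type and less RNA per cell cannot be told apart. Over all genes, 9376 of 16110 were called between Het rods and Het retina (58.2%), 3453 higher in rods (21.4%) and 5923 lower (36.8%). Between KO rods and KO retina 10035 of 16121 were called (62.2%), 4146 higher (25.7%) and 5889 lower (36.5%). Of the 10 genes, 4 were higher, 3 lower and 3 not called in Het, and 4 were higher, 2 lower and 4 not called in KO. Without overlap, 5 were higher and 3 lower in Het, beside 28.5% and 40% of all genes (68.6% either), and 6 and 3 in KO, beside 32.7% and 39.4% (72.1% either). With library size as the only scaling, the median of all genes moved from -0.11 to -0.51 in Het and from -0.02 to -0.55 in KO, and the calls in Het became 1168 higher and 7399 lower. The directions below are therefore relative to the bulk of the genes.

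The PI 3-kinase subunits were the most rod-enriched of the 10. Pik3r1 was 1.03 log2 higher in Het rods than in Het retina (SE 0.142, adjusted p = 0.000245) and 1.01 higher in KO rods than in KO retina. Pik3cb was 0.99 higher in Het (SE 0.125, adjusted p = 0.000141) and 0.86 higher in KO, and Pik3ca 0.79 (SE 0.128, adjusted p = 0.000632) and 0.76. No library of these 3 genes overlapped between fractions after scaling. With library size as the only scaling Pik3ca lost its call in Het at 0.38, and in KO Pik3r1, Pik3ca and Pik3cb lost theirs at 0.48, 0.23 and 0.32. Pik3ca also lost its KO call without KO retina replicate 3, at 0.42. Rod markers, for comparison, had medians of 1.75 and 1.94 in Het and KO.

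Insr was also higher in rods, by 0.58 in Het (SE 0.116, adjusted p = 0.00215) and by 0.60 in KO (SE 0.13, adjusted p = 0.00322), but its call depended on the scaling and on single libraries. With library size alone the difference was 0.17 and 0.06, with the GC trend removed the Het difference was 0.41, also inside the limit of 0.5, and without Het retina replicate 2 it was 0.36. In KO it fell below the limit without any 1 of the 3 retina libraries, at 0.45, 0.48 and 0.29 without replicates 1, 2 and 3. Igf1r was not called in either genotype, with 0.18 (SE 0.113) in Het and 0.37 (SE 0.113, adjusted p = 0.0166) in KO, and turned to -0.23 and -0.16 with library size alone.

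The docking proteins split. Irs2 had a log2 fold change of 0.00 between Het rods and Het retina (SE 0.177) and of 0.40 between KO rods and KO retina (SE 0.144, adjusted p = 0.0335), which the scaling by library size turned to -0.41 and -0.13. Irs1 was lower in rods in both genotypes, with log2 fold changes of -2.43 in Het (SE 0.32, adjusted p = 0.000189) and -2.62 in KO (SE 0.21, adjusted p = 9.55e-06). The reads estimated for Irs1 were 84 in the Het rods and 475 in the Het retina libraries. Relative to the estimated library reads times their TMM factor, it was 4.44 times as abundant in retina (95% interval 3.51 to 5.66), and 6.48 times in KO (4.97 to 8.56). These intervals cover counting error only.

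Grb14, the inhibitory adaptor, was the gene of the 10 most depleted from rods. Among rod libraries the Het values were 0, 3 and 6 and the KO values 1, 2 and 2, at or near the value of 3 reads, and 68 to 86 in the 6 retina libraries. The log2 fold change was -3.92 in Het (SE 0.502, adjusted p = 0.00016) and -4.23 in KO (SE 0.293, adjusted p = 4.55e-06). Grb14 passed the filter on low values only through the retina libraries. Its direction was thus largely set in advance, and these p-values add no separate support. In estimated reads, the Het rods held 10 and the Het retina 222, and the KO rods held 5 against 231. After TMM scaling, as for Irs1, the ratio was 17.4 in favour of retina in Het (95% interval 9.29 to 36.8) and 33.7 in KO (14.2 to 104.7). The intervals pool the reads of a group, cover counting error only and share the limit set by the filter. Markers of Müller glia, bipolar, amacrine and ganglion cells had medians between -5.00 and -4.88 in Het rods against Het retina. The medians were -4.65 for horizontal cell, -4.32 for vascular, -4.02 for microglia and -3.71 for pigment epithelium markers. The part of mRNA from such cells in the few Grb14 reads of rods was not tested.

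Akt2 was depleted from Het rods, with a log2 fold change of -0.94 against Het retina (SE 0.233, adjusted p = 0.00719), and all Het rod libraries were below all Het retina libraries. In KO the difference of -0.53 (SE 0.225) missed the threshold at an adjusted p of 0.0649 and was called in 2 of the 6 fits that left out 1 library, and it was called with library size alone at -1.06, with RLE scaling at -0.56 and with the GC trend removed at -0.66. Akt1 was not called in either genotype, with -0.55 in Het (SE 0.349) and 0.23 in KO (SE 0.33). Leaving 1 library out moved the Het difference between -0.96 and -0.28 and the KO difference between -0.34 and 0.43, and Akt1 was called lower in Het rods in 1 of the 6 fits, without Het retina replicate 3 (-0.96), and also with library size as the only scaling (-0.96, adjusted p = 0.0397). With the GC trend of each library removed, Akt1 in Het rods against Het retina was 0.08.

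**Figure D4:**
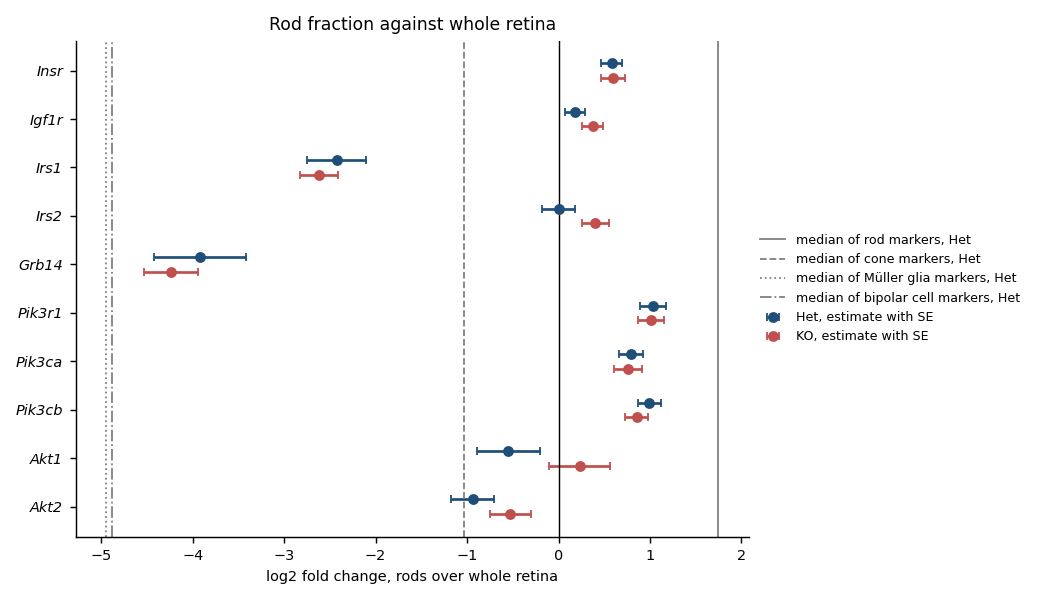
Log2 fold change of rods over whole retina (x axis) for the 10 genes (y axis), with standard errors, in Het (blue) and KO (red), under TMM scaling. Grey lines are the medians of rod, cone, Müller glia and bipolar cell markers in Het. Pik3r1, Pik3cb and Pik3ca lie between 0.76 and 1.03, and Grb14 lies at -3.92 and -4.23, to the right of the glia and bipolar lines. Under scaling by library size alone Igf1r, Irs2 and, in KO, Akt1 fall on the other side of 0.

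Levels between genes were compared only per length, as the scaled value per kb of the longest coding transcript. In Het rods the order was Pik3ca at 585 ± 50.6 (SD, n = 3), Pik3r1 at 540 ± 66.3, Insr at 277 ± 18.2, Igf1r at 234 ± 1.49, Akt1 at 224 ± 45.3, Pik3cb at 139 ± 4.44, Irs2 at 64.97 ± 6.73, Akt2 at 60.1 ± 5.98, Irs1 at 3.03 ± 1.15 and Grb14 at 1.74 ± 1.75. Neighbours whose libraries overlapped were Pik3ca and Pik3r1, Igf1r and Akt1, Irs2 and Akt2, and Irs1 and Grb14, so their order is not resolved. In KO rods Akt1 stood at 374 ± 43.8, above Insr at 278 ± 23.5 and Igf1r at 256 ± 19.6, in the libraries with the higher GC trend. In Het retina Akt1 at 315 ± 166 ranked first of the 10 by mean, although its libraries ran from 179 to 500 and overlapped those of Pik3ca, Pik3r1, Igf1r and Insr.

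Within the families of PI 3-kinase subunits, docking proteins and inhibitory adaptors, shares of the summed level per kb were compared. Pik3ca held 80.5% and Pik3cb 19.1% of the class I catalytic level in Het rods, and Pik3cd and Pik3cg, which are known from leukocytes, 0.355% and 0.018%. Pik3r1 held 66.05%, Pik3r2 18.6% and Pik3r3 15.4% of the regulatory level in Het rods, against 38.3%, 21.9% and 39.8% in Het retina. In KO rods the shares were 55.0%, 34.1% and 10.9%, against 39.2%, 21.3% and 39.5% in KO retina. By these means the Pik3r2 share was lower in rods than in retina in Het and higher in KO. Its level per kb in Het rods (138 to 173) lay within the Het retina range (82.7 to 207), while KO rods (265 to 362) lay above KO retina (82.3 to 198). Pik3r2 is rich in GC, and its log2 fold change in KO against Het rods was 0.29 with the GC trend removed. Irs2 accounted for 95.2% of the Irs level in Het rods and 79.3% in Het retina. Of the adaptors related to Grb14, Grb10 held 99.6% in Het rods and 86.7% in Het retina, and Grb7 was listed at 0 in all 6 rod libraries. These shares are descriptions, and no test was made of them.

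**Figure D5:**
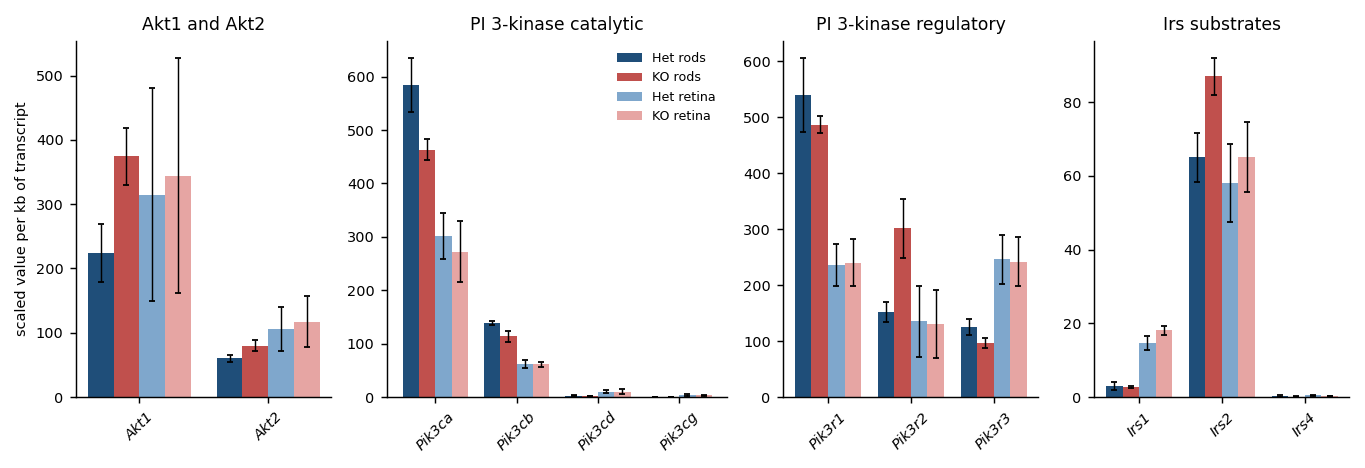
Mean scaled value per kb of transcript (y axes, from 0) for Akt1 and Akt2, the PI 3-kinase catalytic and regulatory subunits and the Irs docking proteins in the 4 groups, with bars for the SD over 3 libraries. Akt1 exceeds Akt2 in Het rods (224 against 60.1), Pik3ca and Pik3r1 lead their families in rods, and Irs1 is near 0 in rods.

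Around these genes, 91 other genes of the insulin, PI 3-kinase and Akt route were counted. Of the 65 tested between KO and Het rods, 5 were higher, 2 were lower and 58 were not called, with a median log2 fold change of 0.02. For all genes tested the share called was 13.1%. The genes that rose were Pik3r2, a regulatory subunit (377, 476 and 397 in Het, 752, 1013 and 726 in KO, log2 fold change 1.05, SE 0.146, adjusted p = 0.00291), Akt1s1, the Akt substrate PRAS40 that restrains mTORC1 (1.02, adjusted p = 0.0125), the docking protein Dok4 (0.94, adjusted p = 0.0145), the receptor adaptor Sh2b1 (0.60, adjusted p = 0.00655) and the FoxO target Bcl6, a transcriptional repressor (0.55, adjusted p = 0.0131). The genes that fell were Inpp4b, a phosphoinositide phosphatase (-0.77, adjusted p = 0.0356), and Bnip3, a mitophagy receptor and FoxO target (-0.57, adjusted p = 0.00969).

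Transcript GC was 61.4% for Pik3r2, 61.8% for Akt1s1, 60.0% for Sh2b1 and 56.6% for Dok4, and 39.0% for Inpp4b and 41.6% for Bnip3. Bcl6, at 51.3%, was the only 1 of the 7 to stay called with the GC trend removed, at 0.55 (SE 0.121, adjusted p = 0.0192). The Het libraries of rods held 245, 283 and 206 and the KO libraries 360, 335 and 326, with no overlap. Retina libraries overlapped for Bcl6, with 276, 372 and 289 in Het against 376, 310 and 369 in KO.

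The most abundant genes of each role were also compared in rods. Among the brakes on the route, the phosphoinositide phosphatase Inpp5k had a log2 fold change of 0.04, Ppp2ca, the catalytic subunit of an Akt phosphatase, -0.26 (adjusted p = 0.0196), Phlpp2 -0.09 and Grb10 0.01. Among activators and adaptors, Pdpk1, the kinase that phosphorylates Akt in the activation segment shown above, was -0.16 (adjusted p = 0.14), Grb2 0.26, Pik3r3 -0.31 and Pik3r4 0.27. The lipid kinases Pik3c3 and Pik3c2a were -0.03 and -0.36. Downstream, Gsk3b was -0.06, Pfkfb2, which drives glycolysis, -0.12, and the FoxO targets Gabarapl1 and Sod2 -0.10 and -0.13. Ppp2ca and Pik3r3, with 44.6% and 44.3% GC, lie in a bin of all genes with a median of -0.20, and Pik3c2a, with 39.0%, in one of -0.29. The bins of Grb2 (51.9%) and Pik3r4 (52.8%) had medians of 0.04 and 0.16. In retina 0 of the 82 genes tested were called.

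Between rods and retina, all 7 tested ligands and binding proteins were lower in Het rods (median log2 fold change -4.73), beside 36.8% of all genes. Of these, only Igfbp5 and Igfbp7 were high enough to be tested between KO and Het rods. The others passed the filter on low values only through the retina libraries, so their direction was largely set in advance. Igf1 had values of 14, 4 and 7 in Het rods and 516, 336 and 709 in Het retina, and Igfbp5 29, 29 and 71 against 892, 993 and 2449. Igfbp7 ranged from 160 in Het retina replicate 1 to 1626 and 3954 in the others. Ins1 was listed at 0 in all 12 libraries and Ins2 at 1 in a single KO retina library, so mRNA of insulin itself was not detectable at this depth. Of all 80 route genes tested in Het, 17 were higher in rods and 31 lower, beside 21.4% and 36.8% of all genes tested, and in KO 25 of 81 were higher and 31 lower, beside 25.7% and 36.5%.

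The Akt activators Mapkap1 (0.76), Mlst8 (0.64) and Pdpk1 (0.56) were among those higher in Het rods, as were the regulatory subunit Pik3r4 (0.79), the lipid kinase Pik3c3 (0.81), the phosphatases Ptpn2 (1.01), Inpp5k (0.94) and Phlpp2 (0.90) and the adaptor Grb10 (0.62). Lower in Het rods were the docking proteins Gab1 (-1.84), Gab2 (-4.14) and Dok5 (-4.39), the receptor-like Insrr (-3.92), the catalytic subunits Pik3cd (-1.97) and Pik3cg (-3.05), and the regulatory subunits Pik3r3 (-1.13) and Pik3r5 (-4.06). Dok5, Insrr, Pik3cd, Pik3cg and Pik3r5 passed the filter only through the retina libraries, so the same limit applies to them. Phosphatases went both ways. Of the 8 phosphoinositide phosphatases tested, 2 were higher in Het rods and 3 lower, namely Inpp4a (-1.01), Inpp4b (-1.76) and Inpp5f (-2.73). Igf2r, which clears Igf2 from the cell surface, did not differ beyond its error, at 0.02 (adjusted p = 0.923).

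The profile of each of 3 genes over the 12 libraries was compared with that of all genes with a mean scaled value of at least 100, by Euclidean distance of centred log2 values. Insr was nearest to Ylpm1, Upf3b and Mettl16 (Pearson r 0.991, 0.989 and 0.986). Grb14 was nearest to Rnf19b, Lgr5 and Tmem169 (0.992, 0.99 and 0.989). Akt2 was nearest to Il11ra1, Prxl2b and Arl2 (0.97, 0.983 and 0.974). All points share the 2 fractions and the GC trends of the libraries, so the values are descriptions.

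The promoters were searched because FoxO factors, which Akt keeps out of the nucleus, are known to act on genes of this route. Windows from 250 bases before to 50 after each start were taken from RefSeq (GRCm38.p6), and 9 of the 10 genes had an entry, with 14 windows in all. The FoxO core TGTTTAC was found on either strand in 1 window, the upstream start of Akt1, and in 3.65% of 32851 windows genome-wide. The GC box GGGCGG occurred in 9 of the 14 windows, at least 1 for each of the 9 genes, against 35.7% of all windows, and the E-box CACGTG in those of Irs1 and Irs2, against 7.15%. Shown are both Akt1 windows and that of Irs2, the 2 genes with the lowest adjusted p-values in KO rods, with these motifs in capitals on the strand of the gene. They lie at chr12:112674835-112675134 and chr12:112674227-112674526 (both minus strand) and chr8:11008880-11009179 (minus strand).
Akt1, upstream start: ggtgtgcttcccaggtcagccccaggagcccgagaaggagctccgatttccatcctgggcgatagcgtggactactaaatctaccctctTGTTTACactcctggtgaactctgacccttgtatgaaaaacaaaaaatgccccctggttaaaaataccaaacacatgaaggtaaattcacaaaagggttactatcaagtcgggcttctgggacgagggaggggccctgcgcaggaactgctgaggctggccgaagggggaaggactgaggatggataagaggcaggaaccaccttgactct
Akt1, downstream start: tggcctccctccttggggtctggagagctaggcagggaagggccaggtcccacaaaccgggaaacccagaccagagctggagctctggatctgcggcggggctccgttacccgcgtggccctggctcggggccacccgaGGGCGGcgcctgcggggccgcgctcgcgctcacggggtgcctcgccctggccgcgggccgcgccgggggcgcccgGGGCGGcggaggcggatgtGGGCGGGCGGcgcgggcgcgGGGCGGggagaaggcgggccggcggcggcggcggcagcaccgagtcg
Irs2: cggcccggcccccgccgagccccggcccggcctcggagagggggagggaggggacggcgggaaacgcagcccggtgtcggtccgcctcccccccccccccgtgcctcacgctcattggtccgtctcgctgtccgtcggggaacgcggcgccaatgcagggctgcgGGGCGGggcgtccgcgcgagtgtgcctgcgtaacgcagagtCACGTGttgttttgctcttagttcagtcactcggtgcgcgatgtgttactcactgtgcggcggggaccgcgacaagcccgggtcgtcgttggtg

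The downstream Akt1 window has 79.7% G and C, the upstream one 52.3% and the Irs2 window 72%, where the median of all windows is 52.7%. No FoxO core was found in the Irs2 window. These are matches of letters only, and no binding was measured in these libraries.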

How the data were processed

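Libraries were made from poly(A) RNA with a SMART-Seq V4 kit, and the submitters' processing notes name CASAVA 1.8.2, HISAT2, DESeq2, edgeR and GRCm39 without a role. The counting tool and strand are not given in the sources used here. The deposited values, a score of whole numbers that the authors scaled per library, are not raw counts (totals within a fraction differ by at most 0.017%), so no count model was used. Each library's factor was estimated from gaps between low integers.

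Genes with a value of about 10 in at least 3 libraries and a sum of at least 15 were tested with limma 3.58.1 (trend, robust) in R 4.3.3 on log2(TMM-scaled value + 2), only the groups compared entering a fit, with Benjamini-Hochberg adjustment over all genes and calls at adjusted p under 0.05 and an absolute log2 fold change over 0.5. The interaction used all 12 libraries. With 3 against 3, no exact permutation test can go below 0.1. On simulated counts for the rod genotype comparison (12866 genes), 91% of 100 genes changed by 1 log2 unit were recovered, and 49% for the interaction. The simulated counts had a fixed dispersion and no GC trend, so these shares do not measure the power in the real libraries. In Het rods against Het retina, libraries with the same number deviated together (correlations 0.47, 0.41 and 0.25), so the numbers in the titles may pair them. Figures and sequence counts used Python 3.11.15.

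Transcript GC, length and coding stretches came from the GENCODE annotation (GRCm38) through Ensembl identifiers, and promoters from RefSeq. Overlapping genes were at or near 0 except Gm37123 within Pik3ca (23 to 68). Named were the 10 genes, Ptpn11, route genes called in a genotype comparison, the 2 most abundant others of each role, and the 3 nearest profiles of Insr, Grb14 and Akt2. Others, such as Ptpn2 and Mapkap1, were named after their values were seen. Results of some genes that this rule names are not reported here. The genes and lists were chosen with earlier results of these data known. Of the horizontal cell markers, Sept4 was not matched. Alternatives were RLE and library-size scaling, pseudocounts of 0.5 and 10, no filter, a replicate block, GC trend removal, fits without robust weighting, without the fold limit, without rod-depleted genes or with all libraries, and each library left out.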

Additional observations from a re-analysis of the deposited data

How the results depend on the processing

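Within KO rods against Het rods, calls were 1406 higher and 305 lower. Library size as the only scaling gave 584 lower. Removal of the GC trend gave 253 higher and 117 lower, and with the replicate block as well 313 and 129. Without the fold limit 1357 were lower, and 1 fit over all 12 libraries called 0 in either direction, where the retina libraries enter the spread and Akt1 had 0.75 (adjusted p = 0.273). With 1 library left out, counts ran from 794 to 1596 higher and from 93 to 347 lower, the fewest without Het replicate 1. Akt1 kept its call except in the GC-corrected fits (0.17 with and without the block) and that over all libraries. Signs turned for genes that were not called: Irs1 to -0.03 with library size or all libraries, and Pik3r1, Pik3ca and Pik3cb to 0.19, 0.07 and 0.02 in the GC-corrected fits. Leaving out a library moved Irs1 from -0.27 to 0.27 and Pik3r1 from -0.12 to 0.04. Irs2 passed the limit with RLE scaling (0.50), without the filter (0.53) and without rod-depleted genes (0.52). Akt2 passed it without the filter (0.52).

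In KO against Het retina, at most 1 gene was called in either direction with a library left out. Pik3r1 (-0.00 with library size) and Pik3cb (0.00 with GC removed) changed sign, and leaving out a library gave ranges of -0.01 to 0.12 for Igf1r, -0.13 to 0.13 for Pik3r1, -0.09 to 0.05 for Pik3cb, -0.29 to 0.52 for Akt1 and -0.13 to 0.38 for Akt2. For Het rods against Het retina (3453 higher, 5923 lower), library size gave 1168 higher, Igf1r -0.23 and Irs2 -0.41, GC removal gave Akt1 0.08 and took the call of Insr (0.41 with and without the block), and leaving out a library gave 2223 to 3065 higher, 3111 to 5700 lower and Irs2 -0.17 to 0.08. For KO rods against KO retina (4146 and 5889), library size gave 1144 higher, Igf1r -0.16, Irs2 -0.13 and Akt1 -0.30, and leaving out a library gave 2411 to 3824 higher, 3387 to 5711 lower and Akt1 -0.34 to 0.43. The fewest calls came without retina replicate 1 in both. For the interaction, 0 to 1 genes were lower with a library left out. Signs turned without the filter for Insr (0.02), with GC removed for Insr (0.04), Irs2 (-0.06), Pik3r1 (0.05) and Pik3ca (0.09), and over left-out libraries for Insr (-0.17 to 0.10), Grb14 (-1.01 to 0.05), Pik3r1 (-0.23 to 0.11) and Pik3ca (-0.26 to 0.10). The cause of these shifts was not tested.

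The replicate number as a block alone changed no call of the 10 genes. Between KO and Het rods the same-number correlations were 0.18, 0.033 and 0.026, and between KO and Het retina 0.4, -0.59 and -0.14. Between KO rods and KO retina they were 0.33, -0.014 and 0.18, with a mean of 0.17 against -0.083 for libraries of different number. Pairing by number was not shown in these comparisons, and 3 libraries per group cannot decide it. Depth limits Grb14 and Irs1 in rods, where single reads move the values.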
